A study of Mus musculus with 4 samples.

Results

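Enzymes and subunits that write, erase or act on chromatin marks were measured in cardiac fibroblasts of newborn mice treated with a short hairpin RNA against the orphan nuclear receptor Nr4a3 (shNr4a3) or with the hairpin labelled shNT, the control. The set held 43 genes chosen by name as regulators of cell fate, and all 43 were found by symbol among the 13192 genes of the deposited count table. They were read in 6 subgroups: DNA methylation (5 genes), Polycomb (8), lysine methylation (9), lysine demethylation (8), acetylation (10) and chromatin remodelling (3). Both groups were primary cells of wild-type genotype, labelled as a neonatal batch and taken on day 7, with 2 libraries each; the hairpin is the treatment given, and P3 in the titles is left unexplained. Whether replicates were separate cultures is not stated, so p-values reflect the spread between these libraries, and that spread may be technical. The series asks how knockdown of Nr4a3 favours the conversion of fibroblasts into cardiomyocyte-like cells.

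Chromatin modifiers set how accessible a gene is to transcription factors. DNA methyltransferases of the Dnmt family add methyl groups to cytosine and TET dioxygenases oxidise them. Polycomb repressive complex 2 (PRC2) methylates histone H3 at lysine 27 and Polycomb repressive complex 1 (PRC1) ubiquitinates histone H2A, both linked with silencing of developmental genes. Methylation of H3 at lysine 4 marks promoters and enhancers in use, at lysine 9 silent chromatin, and at lysines 36 and 79 transcribed gene bodies. Acetylation of histones by acetyltransferases accompanies active transcription and is removed by deacetylases, while remodelling ATPases move nucleosomes. In fibroblasts, several of these enzymes are known to restrain or assist the change to another cell identity during direct reprogramming.

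The libraries held 34068241 to 35111013 counts over the listed genes. Nr4a3 (chromosome 4, 48045153 to 48086447; GRCm38, GENCODE M21) had 4 and 8 counts in the shNr4a3 libraries against 60 and 29 in the shNT libraries, a log2 fold change of -2.98 ± 0.67 (SE, n = 2 per group; adjusted p = 3.22e-04). All 13 fibroblast markers examined were detected, with a summed level of 28461 and 28287 CPM (counts scaled to a common library size) in shNr4a3 against 37690 and 34123 CPM in shNT; 5 rose, among them Pdgfra, and 7 fell, among them Tcf21. Markers of other cell types moved with the groups. The 14 mesothelial markers summed to 196 and 193 CPM in shNr4a3 against 791 and 763 CPM in shNT. The 14 endothelial markers tested summed to 527 and 531 CPM in shNr4a3 against 988 and 883 CPM in shNT. Of these, 13 mesothelial markers fell and 1 rose, and 12 endothelial markers fell and 2 did not pass. The 10 smooth muscle and pericyte markers tested (6 fell, 1 rose) summed to 3791 and 3821 CPM in shNr4a3 against 4454 and 4191 CPM in shNT. The 5 macrophage and leukocyte markers tested (3 fell, and Lyz2 rose) summed to 99.8 and 99.2 CPM in shNr4a3 against 60.5 and 60.6 CPM in shNT, while Ptprc, Adgre1 and the 3 C1q genes were not among the genes tested. The 8 cardiomyocyte markers tested (2 fell, 1 rose) summed to 485 and 510.1 CPM in shNr4a3 against 1065 and 1010 CPM in shNT, nearly all of it Tnnt2, and Myh7, Actc1 and Myl2 were not among the genes tested. Transcripts of proliferation genes moved too: 23 of 25 mitosis genes fell, with a summed level of 113 and 111 CPM in shNr4a3 against 226 and 222 CPM in shNT. Of 25 S phase genes, 11 fell, 1 rose and 13 did not pass. The part that these shifts have in the results below was not tested. In bulk RNA, fewer cells of a type and less marker RNA per cell, in whichever cells make it, cannot be told apart.

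Of the 43 chromatin modifiers, 17 rose and 13 fell with knockdown, and the other 13 did not reach an adjusted p of 0.05 (quasi-likelihood test of edgeR, adjusted over all 13160 tested genes). The same test called 55.5% of all tested genes, 27.6% as higher and 27.9% as lower, against 69.8% of the chromatin modifiers, 39.5% as higher and 30.2% as lower. It called 52.7% of 148 other chromatin genes. The 43 members were chosen with earlier results of these data known, and the difference between these shares was not tested. Their median log2 fold change was 0.04, beside 0.004 over all genes, and the median absolute log2 fold change was 0.33 beside 0.35. Most changes were small: 12 of the 43 genes exceeded 0.5 on the log2 scale in either direction and Tet1 alone exceeded 1. Over all 13160 tested genes, 4666 exceeded 0.5 and 1768 exceeded 1. In 5 genes the libraries of the groups overlapped, in 21 both shNr4a3 libraries lay above both shNT libraries and in 17 below. Groups did not overlap in 77.2% of all tested genes. Every one of the 43 passed the filter on low counts, with 34 to 12067 counts per library. Scaling by library totals alone raised the median of all genes to 0.117, and the split of the members then became 20 higher and 11 lower, with 4702 and 2837 genes over the whole table in place of 3635 and 3674.

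**Figure D1:**
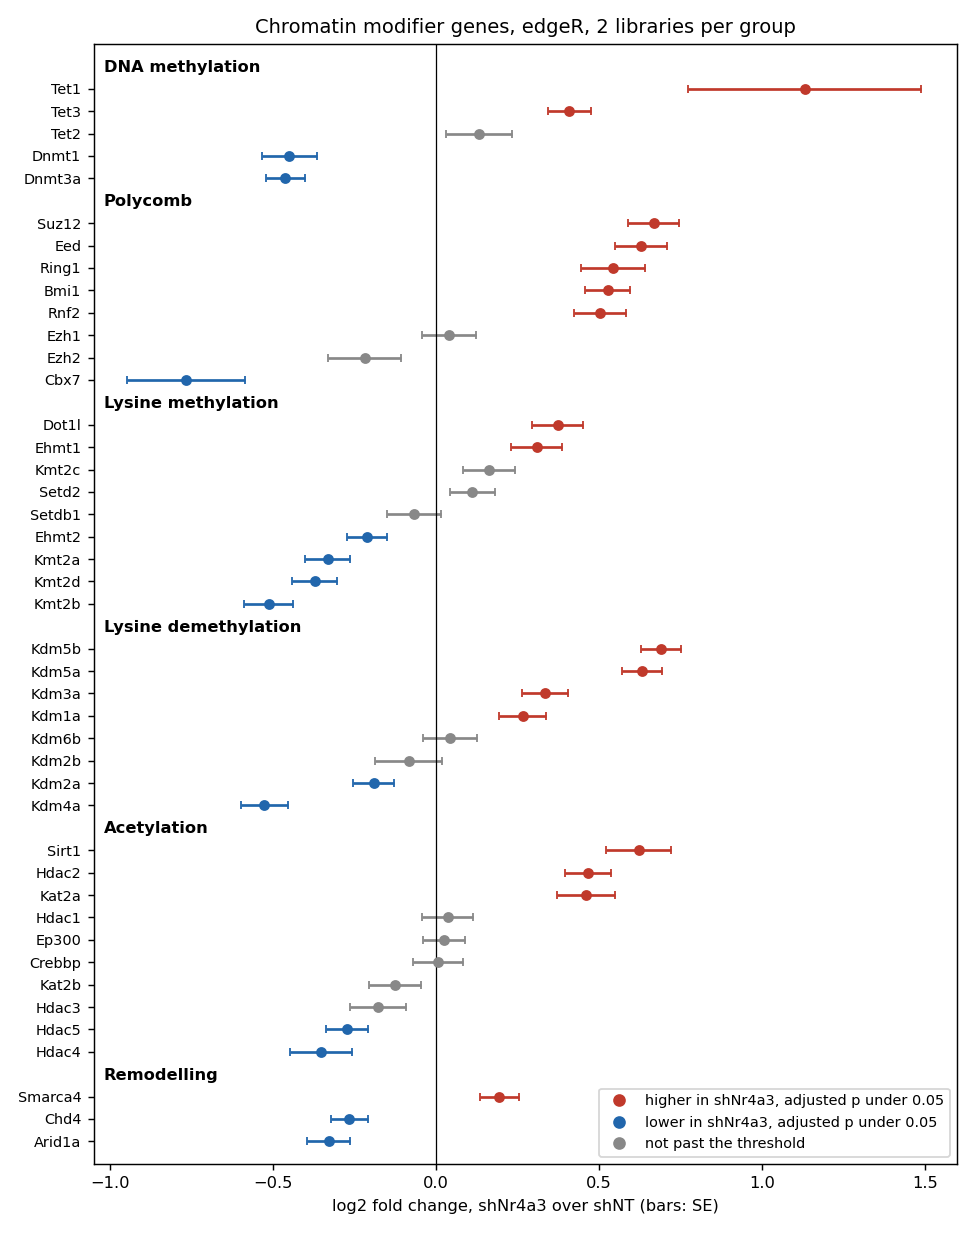
Log2 fold changes of the 43 chromatin modifiers, shNr4a3 over shNT, on the horizontal axis with their SE as bars, grouped by subgroup and ordered by size. Red and blue points passed an adjusted p of 0.05 as higher (17 genes) and lower (13 genes), and grey points did not; most points lie within 0.7 of 0, with Tet1 at 1.13 and Cbx7 at -0.77.

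Because Nr4a3 is a transcription factor, the windows from 250 bases before to 50 bases after the annotated starts were searched for motifs. RefSeq windows (GRCm38.p6) were found for 37 of the 43 genes, 50 windows in all; Hdac1, Hdac3, Kdm2a, Kdm5a, Kdm6b and Kmt2b had none. The NR4A monomer element AAAGGTCA, searched on both strands, was in 0 of 50 windows, against 1.51% of all 32851 windows. The cyclic AMP element TGACGTCA and the ETS element CCGGAAGT were also in 0 of 50 windows, against 1.79% and 3.89% of all windows. The CCAAT box was in 36% of the windows and in 37.4% of all windows. An E2F element, TTTGGCGC or TTTCCCGC, was in 4 of 50 windows (8.0%), against 1.56% of all windows. The matches lie in 1 of 3 windows of Dnmt1, 1 of 2 of Arid1a and the single windows of Ezh2 and Suz12; of these genes Suz12 rose, Dnmt1 and Arid1a fell and Ezh2 did not pass. A match is a description of the letters and says nothing on binding. Sequences of Suz12, Arid1a and Ezh2 are shown 5′ to 3′ on the gene's own strand, because they hold the matches that lie before or next to a start; capitals mark the E2F match. Suz12 and Arid1a hold TTTCCCGC 219 and 55 bases before the start, and Ezh2 holds TTTGGCGC just after it. The Arid1a window belongs to a start inside the gene, and the window at its outermost start held none of the motifs searched. Suz12 and Arid1a are given to the base before the start, and Ezh2 with 20 bases after it.
Suz12 (GRCm38 chr11:79992856-79993105, plus strand): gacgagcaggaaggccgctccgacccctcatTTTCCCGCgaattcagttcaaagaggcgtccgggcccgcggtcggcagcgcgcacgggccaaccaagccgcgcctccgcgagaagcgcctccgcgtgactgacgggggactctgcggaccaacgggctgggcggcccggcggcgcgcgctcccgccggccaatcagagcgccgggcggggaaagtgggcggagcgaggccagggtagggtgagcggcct
Arid1a (GRCm38 chr4:133753986-133754235, minus strand): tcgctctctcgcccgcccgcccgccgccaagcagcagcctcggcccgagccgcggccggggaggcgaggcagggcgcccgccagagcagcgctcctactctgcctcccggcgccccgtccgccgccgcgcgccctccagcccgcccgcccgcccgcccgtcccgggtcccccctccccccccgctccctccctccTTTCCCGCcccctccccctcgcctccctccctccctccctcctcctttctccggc
Ezh2 (GRCm38 chr6:47595011-47595280, minus strand): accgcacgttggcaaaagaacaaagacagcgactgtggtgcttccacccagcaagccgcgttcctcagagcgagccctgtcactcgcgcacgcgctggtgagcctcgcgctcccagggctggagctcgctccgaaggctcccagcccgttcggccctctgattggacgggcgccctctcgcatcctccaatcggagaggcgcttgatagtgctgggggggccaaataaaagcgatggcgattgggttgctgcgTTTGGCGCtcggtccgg

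In the DNA methylation subgroup both methyltransferases of the set fell while 2 of 3 TET dioxygenases rose. Dnmt1, the maintenance methyltransferase that copies methylation after replication, had 35.98 and 36.2 CPM in shNr4a3 against 49.9 and 48.7 CPM in shNT. Its log2 fold change was -0.45 ± 0.08 (SE; adjusted p = 3.76e-05). Dnmt3a, which methylates unmodified DNA, had 125 and 125 CPM in shNr4a3 against 175 and 170.4 CPM in shNT, and fell by 0.46 on the log2 scale (SE 0.06; adjusted p = 1.38e-07). For both, each shNr4a3 library lay below each shNT library, where groups did not overlap in 77.2% of all tested genes. The balance between Dnmt1 and Dnmt3a hardly moved: Dnmt1 made up 39.3% and 39.5% of the pair's per-kilobase level in shNr4a3 and 39.2% in each shNT library. Tet3 had 118 and 123 CPM in shNr4a3 against 90.2 and 90.7 CPM in shNT, a log2 fold change of 0.41 ± 0.07 (adjusted p = 4.16e-06). Tet1 was rare, with 111 and 85 counts in shNr4a3 against 34 and 49 counts in shNT, and its log2 fold change of 1.13 ± 0.36 (adjusted p = 0.0078) was lost once shNr4a3 replicate 1 was left out (0.91, adjusted p = 0.126). Tet2 had 30.4 and 27.4 CPM in shNr4a3 against 27.1 and 25.7 CPM in shNT and did not pass (adjusted p = 0.28). The order of the TET genes per kilobase of exon in shNT was Tet3 at 5.42, Tet2 at 1.56 and Tet1 at 0.0805 CPM per kilobase, so Tet1, the gene with the largest fold, stood lowest of all 43.

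Among other genes of DNA methylation, 3 of 15 tested rose and 6 fell. Gadd45b, a stress-induced protein linked with demethylation, rose by 0.85, while Tdg, the glycosylase that excises oxidised methylcytosine, fell by 1.06, and Mbd3, a subunit of the NuRD complex, fell by 0.48 on the log2 scale. Uhrf1, which recruits Dnmt1 to replicated DNA and was picked with its value in view, fell by 0.67 on the log2 scale. It had 7.90 and 7.44 CPM in shNr4a3 against 13.1 and 11.3 CPM in shNT. The methyltransferase Dnmt3b, outside the set and also picked with its value in view, did not pass (0.08; adjusted p = 0.789). It had 4.05 and 4.19 CPM in shNr4a3 against 3.99 and 3.80 CPM in shNT.

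Of the Polycomb genes, 5 of 8 rose, 1 fell and 2 did not pass, with a median log2 fold change of 0.52 and a summed level of 455 and 450.1 CPM in shNr4a3 against 333 and 341 CPM in shNT. In the set, the PRC2 core subunits Suz12 and Eed, which hold the complex together and bind methylated lysine 27, rose most. Rbbp4 and Rbbp7, further PRC2 subunits outside the set and picked with their values in view, fell by 0.26 and 0.21 on the log2 scale. Suz12 (chromosome 11, 79993106 to 80034123; GRCm38) had 78.3 and 74.7 CPM in shNr4a3 against 50.8 and 45.6 CPM in shNT, a log2 fold change of 0.67 ± 0.08 (adjusted p = 1.56e-08). Eed had 72.5 and 72.1 CPM in shNr4a3 against 43.5 and 49.9 CPM in shNT (0.63 ± 0.08; adjusted p = 7.62e-08). In contrast, the catalytic subunits of PRC2 did not pass. Ezh2, the methyltransferase of dividing cells, had 18.3 and 19.8 CPM in shNr4a3 against 21.8 and 22.5 CPM in shNT (-0.22 ± 0.11; adjusted p = 0.0986). Its groups did not overlap, as in 77.2% of all tested genes. Ezh1, its counterpart in resting cells, had 59.8 and 57.3 CPM in shNr4a3 against 60.9 and 53.0 CPM in shNT (0.04 ± 0.08; adjusted p = 0.702). Per kilobase of exon, Ezh2 made up 25.4% and 27.8% of the Ezh1 and Ezh2 sum in shNr4a3 and 28.5% and 32.1% in shNT, so Ezh1 was the more abundant of the pair in each library.

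Within PRC1, the ubiquitin ligases and their partner Bmi1 rose and the chromodomain subunit Cbx7 fell. Bmi1, a ring-finger partner known for repressing the Cdkn2a locus of cell cycle inhibitors and, in mouse fibroblasts, as a barrier to direct cardiac reprogramming, had 118 and 116 CPM in shNr4a3 against 76.6 and 86.1 CPM in shNT (0.53 ± 0.07; adjusted p = 1.53e-07). Rnf2, the main H2A ubiquitin ligase, had 69.0 and 70.5 CPM in shNr4a3 against 46.3 and 52.1 CPM in shNT (0.50 ± 0.08; adjusted p = 2.85e-06). Ring1, its paralogue, had 33.6 and 33.7 CPM in shNr4a3 against 23.6 and 22.6 CPM in shNT (0.54 ± 0.10; adjusted p = 2.26e-05). In all 3, both shNr4a3 libraries exceeded both shNT libraries, where groups did not overlap in 77.2% of all tested genes. Cbx7, which reads methylated lysine 27 and carries PRC1 to its targets, had 4.89 and 6.04 CPM in shNr4a3 against 9.26 and 9.35 CPM in shNT and was 1.70-fold lower, a log2 fold change of -0.77 ± 0.18 (adjusted p = 6.27e-04). Cbx7 shares 100 exon bases with Apobec3 on the opposite strand, and the strand setting of the counting is not given in the sources used here. Of the Polycomb genes that rose, Eed shares 261, Suz12 178 and Rnf2 158 exon bases with opposite-strand genes, and Bmi1 and Ring1 share none. Ezh2, which did not pass, shares 174. Of the rising PRC1 genes, Ring1 was the scarcest at 10.4 CPM per kilobase in shNr4a3 and 7.13 in shNT, and Bmi1 the most abundant at 29.5 in shNr4a3 and 20.5 in shNT.

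Of 26 other Polycomb genes 7 rose and 9 fell (26.9% and 34.6%, beside 27.6% and 27.9% of all tested genes), with a median of 0.04. Cbx6, another chromodomain subunit, rose by 0.66, whereas Pcgf5, a Bmi1 relative, fell by 0.50, the PRC1-associated Scmh1 by 0.76 and Asxl2, a cofactor of the H2A deubiquitinase Bap1, by 0.35 on the log2 scale. Phf19, a PRC2 accessory subunit picked with its value in view, fell by 1.70 on the log2 scale, at 21 and 30 counts in shNr4a3 against 77 in each shNT library.

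**Figure D2:**
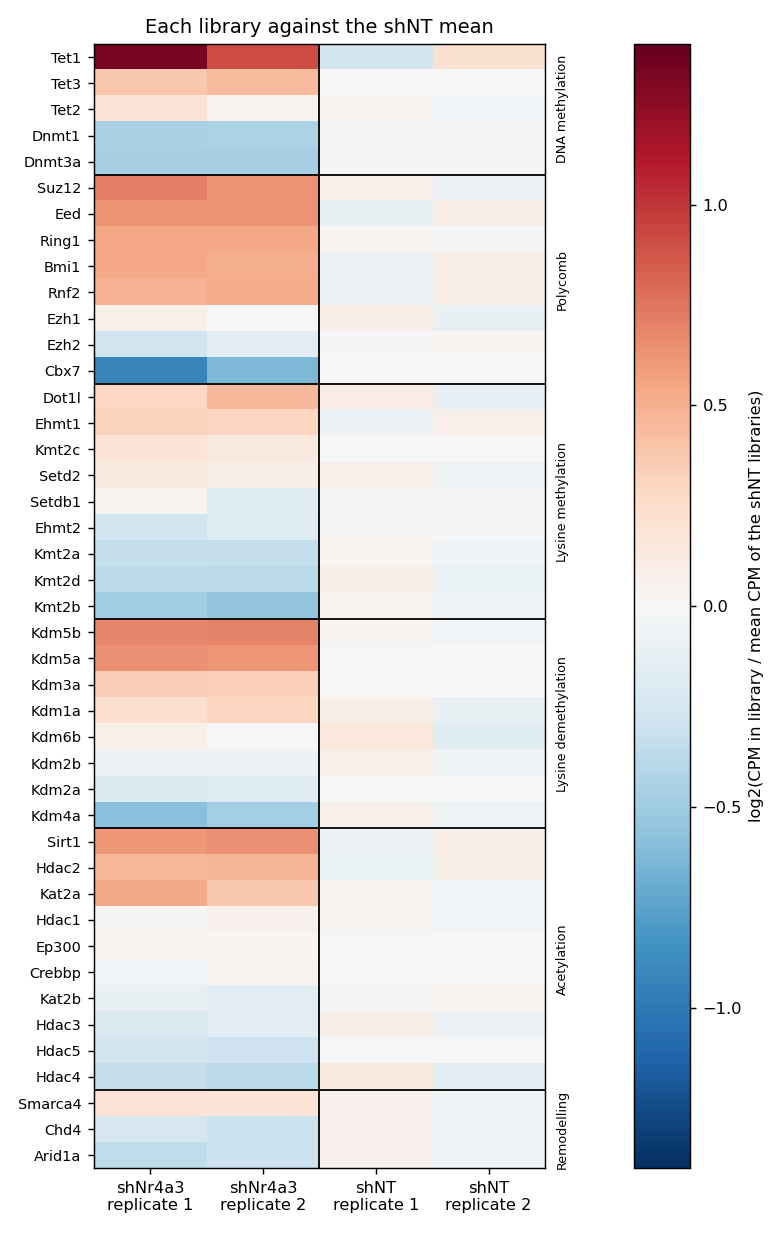
Level of each chromatin modifier in each library as log2 of its CPM over the mean CPM of the shNT libraries; red is above and blue below that mean, columns are the 2 shNr4a3 and the 2 shNT libraries, and black lines part the subgroups. The Polycomb block shows Suz12, Eed, Ring1, Bmi1 and Rnf2 red in both shNr4a3 columns and Cbx7 blue, while the shNT columns stay paler, with the strongest colours there in Tet1, Kdm6b and Hdac4.

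Of the lysine methyltransferases, 4 of 9 fell, 2 rose and 3 did not pass, with a median log2 fold change of -0.07; with library totals only, 3 fell and 4 rose. The KMT2 family, which methylates H3 at lysine 4, accounted for 3 of the 4 that fell. Kmt2b, active at promoters, had 56.6 and 54.1 CPM in shNr4a3 against 81.5 and 76.7 CPM in shNT (-0.51 ± 0.08; adjusted p = 8.61e-07). Kmt2d, which acts mainly at enhancers, had 89.7 and 88.7 CPM in shNr4a3 against 123 and 108 CPM in shNT (-0.37 ± 0.07; adjusted p = 3.75e-05). Kmt2a, which maintains homeobox gene expression, had 80.2 and 80.6 CPM in shNr4a3 against 104 and 98.2 CPM in shNT (-0.33 ± 0.07; adjusted p = 1.40e-04; -0.22 with library totals only). Each of the 3 was lower in both shNr4a3 libraries than in either shNT library, where groups did not overlap in 77.2% of all tested genes. Kmt2c, the enhancer enzyme closest to Kmt2d, had 56.0 and 53.7 CPM in shNr4a3 against 49.3 and 48.7 CPM in shNT, pointing the other way without passing (0.16 ± 0.08; adjusted p = 0.0847); it passed with scaling by library totals only (0.28).

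The H3 lysine 9 methyltransferases split. Ehmt1 and Ehmt2 form a heterodimer, and Ehmt1 rose (71.5 and 70.7 CPM in shNr4a3 against 54.3 and 60.4 CPM in shNT; 0.31 ± 0.08; adjusted p = 0.00112) while Ehmt2 fell (141 and 151 CPM in shNr4a3 against 172 and 167 CPM in shNT; -0.21 ± 0.06; adjusted p = 0.00412). Ehmt2 lost its call without shNr4a3 replicate 1 (-0.16) and with library totals only (-0.10). Its share of the pair per kilobase was 74.5% and 76.0% in shNr4a3 against 82.4% and 80.3% in shNT. Setdb1, which silences retroelements, had overlapping groups with 55.8 and 48.2 CPM in shNr4a3 against 53.8 and 55.2 CPM in shNT (-0.07 ± 0.08; adjusted p = 0.515). Dot1l, the lysine 79 methyltransferase known as a barrier to reprogramming to pluripotency, rose, with 83.9 and 93.5 CPM in shNr4a3 against 73.8 and 63.3 CPM in shNT (0.37 ± 0.08; adjusted p = 1.87e-04). Setd2, which trimethylates lysine 36, had 104 and 101 CPM in shNr4a3 against 99.9 and 90.6 CPM in shNT and did not pass (0.11 ± 0.07; adjusted p = 0.176), although it did without shNT replicate 1 (0.19) and with library totals only (0.22).

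Among 25 other methyltransferase and cofactor genes 7 rose and 4 fell (28.0% and 16.0%, beside 27.6% and 27.9% of all tested genes). Setd7, a lysine 4 monomethyltransferase, rose by 0.72, the lysine 36 enzyme Nsd1 by 0.49 and the H4 lysine 20 enzyme Kmt5a by 0.41, and Smyd2, which also methylates p53, fell by 0.71 on the log2 scale.

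Lysine demethylases rose in 4 of 8 cases and fell in 2. All 3 lysine 4 demethylases of the set rose, and 2 of them belong to the JARID1 family. Kdm5b (chromosome 1, 134560171 to 134635285; GRCm38) had 194 and 195 CPM in shNr4a3 against 124 and 117 CPM in shNT, a 1.61-fold rise and a log2 fold change of 0.69 ± 0.06 (adjusted p = 4.17e-11), the smallest p of the 43. Kdm5a (chromosome 6, 120364124 to 120444574; GRCm38) had 165 and 163 CPM in shNr4a3 against 106 and 105 CPM in shNT, 1.55-fold higher (0.63 ± 0.06; adjusted p = 3.93e-10). Within each group the libraries differed far less than the groups did. The pair kept its balance, Kdm5b making up 50.2% and 50.7% of their per-kilobase sum in shNr4a3 and 49.99% and 48.8% in shNT. Kdm1a, also called LSD1, a flavin-dependent enzyme of the CoREST complex, rose less: 94.8 and 99.1 CPM in shNr4a3 against 86.0 and 75.3 CPM in shNT (0.27 ± 0.07; adjusted p = 0.00267), a call lost without shNr4a3 replicate 2 (0.23) and a value of 0.18 without shNT replicate 2. Beside these, 3 of the set's 4 lysine 4 methyltransferases (Kmt2a, Kmt2b and Kmt2d) fell, while Kmt2c stood at 0.16 without passing. That contrast was read from the values and not tested. Like genes outside the set, picked with their values in view, were mixed. The methyltransferases Setd1a (-0.20) and Setd1b (-0.12) did not pass and Setd7 rose (0.72). The demethylase Kdm5c rose (0.24) and Kdm1b did not pass (0.20).

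The lysine 9 and 36 demethylases diverged. Kdm3a, a lysine 9 demethylase induced by hypoxia, had 83.8 and 83.2 CPM in shNr4a3 against 65.9 and 66.6 CPM in shNT (0.33 ± 0.07; adjusted p = 2.12e-04). Kdm4a, which acts on lysines 9 and 36, had 73.9 and 79.9 CPM in shNr4a3 against 117 and 105 CPM in shNT and was 1.44-fold lower (-0.53 ± 0.07; adjusted p = 2.28e-07). Kdm2a, a CpG-island lysine 36 demethylase, had 116 and 117 CPM in shNr4a3 against 132 and 134 CPM in shNT; its fall of 0.19 was the smallest change called, and it did not pass without either shNr4a3 library (-0.18 and -0.20) or with library totals only (-0.08). Kdm2b, which brings a variant PRC1 to CpG islands, had 24.5 and 24.4 CPM in shNr4a3 against 27.2 and 24.7 CPM in shNT (-0.08 ± 0.10; adjusted p = 0.512). Kdm6b, which removes the Polycomb mark from lysine 27, had 77.9 and 74.4 CPM in shNr4a3 against 82.0 and 65.8 CPM in shNT, overlapping (0.04 ± 0.08; adjusted p = 0.678). The spread lay in the shNT pair, and Kdm6b passed at 0.21 without shNT replicate 1 and stood at -0.10 without shNT replicate 2. Kdm6a, the other lysine 27 demethylase, was not in the set; picked with its value in view, it rose by 0.35 on the log2 scale.

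Of 18 other demethylase and CoREST genes 8 rose and 3 fell (44.4% and 16.7%, beside 27.6% and 27.9% of all tested genes). Jmjd1c, of the Kdm3 family, rose by 0.69, the hairless corepressor Hr by 0.67 and the Kdm1a partner Rcor1 by 0.51, and Phf2, a lysine 9 demethylase, fell by 0.48 on the log2 scale.

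In the acetylation subgroup 3 of 10 rose, 2 fell and 5 did not pass. Among deacetylases, Sirt1, an NAD-dependent enzyme that also deacetylates p53, had 34.4 and 35.0 CPM in shNr4a3 against 21.3 and 23.8 CPM in shNT, 1.54-fold higher (0.62 ± 0.10; adjusted p = 3.60e-06). Hdac2 had 109.7 and 111 CPM in shNr4a3 against 75.0 and 84.5 CPM in shNT (0.47 ± 0.07; adjusted p = 1.50e-06). Its close paralogue Hdac1, which shares the Sin3, NuRD and CoREST complexes, had 58.2 and 60.0 CPM in shNr4a3 against 59.2 and 56.2 CPM in shNT (0.04 ± 0.08; adjusted p = 0.718). Hdac2 therefore made up 59.2% and 58.7% of the pair per kilobase in shNr4a3 and 49.4% and 53.7% in shNT. Hdac3, the NCoR enzyme, had 42.6 and 44.3 CPM in shNr4a3 against 52.0 and 46.5 CPM in shNT (-0.18 ± 0.09; adjusted p = 0.0745); it passed without shNT replicate 2 (-0.26) and when 100 counts in at least 2 libraries were required (-0.20).

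The class IIa deacetylases bind and restrain MEF2 factors in heart muscle, and both members of the class in the set fell. Hdac5 had 102 and 101 CPM in shNr4a3 against 123 CPM in each shNT library (-0.27 ± 0.06; adjusted p = 5.79e-04; -0.16 with library totals only). Hdac4 had 34.0 and 32.9 CPM in shNr4a3 against 47.0 and 38.6 CPM in shNT (-0.35 ± 0.10; adjusted p = 0.00219), and lost its call without shNT replicate 1 (-0.20). Hdac4 shares 3536 of its 15813 exon bases with Gm26720 on the opposite strand, so its reads and those of that gene cannot be told apart unless strand was used. Other sharing of exon bases with opposite-strand genes reached 826 bases in Kdm2b and 378 or fewer in the rest. On the same strand, 6 members share exon bases with another gene, at most 124 bases (Kdm2b).

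Acetyltransferases moved little except Kat2a. Kat2a, also called GCN5 and the catalytic subunit of the SAGA coactivator, had 50.3 and 45.4 CPM in shNr4a3 against 35.8 and 33.8 CPM in shNT (0.46 ± 0.09; adjusted p = 5.06e-05). Kat2b, also called PCAF, had 50.3 and 48.7 CPM in shNr4a3 against 52.9 and 55.1 CPM in shNT (-0.13 ± 0.08; adjusted p = 0.189), so its share of the pair was 41.7% and 43.4% in shNr4a3 and 51.4% and 53.8% in shNT. The coactivators Ep300 and Crebbp lay closest to no change: Ep300 had 122 CPM in each shNr4a3 library against 119 and 120.2 CPM in shNT (0.02 ± 0.06; adjusted p = 0.765), and Crebbp 56.7 and 60.3 CPM in shNr4a3 against 58.0 and 58.5 CPM in shNT (0.01 ± 0.08; adjusted p = 0.955). Of 29 other acetylation genes 7 rose and 9 fell (24.1% and 31.0%, beside 27.6% and 27.9% of all tested genes). Brd9, a bromodomain subunit of the BAF remodelling complex (0.65), the corepressor Sin3b (0.45) and the acetyltransferase Kat7 (0.38) rose. The deacetylase Sirt2 fell by 1.14 on the log2 scale.

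**Figure D3:**
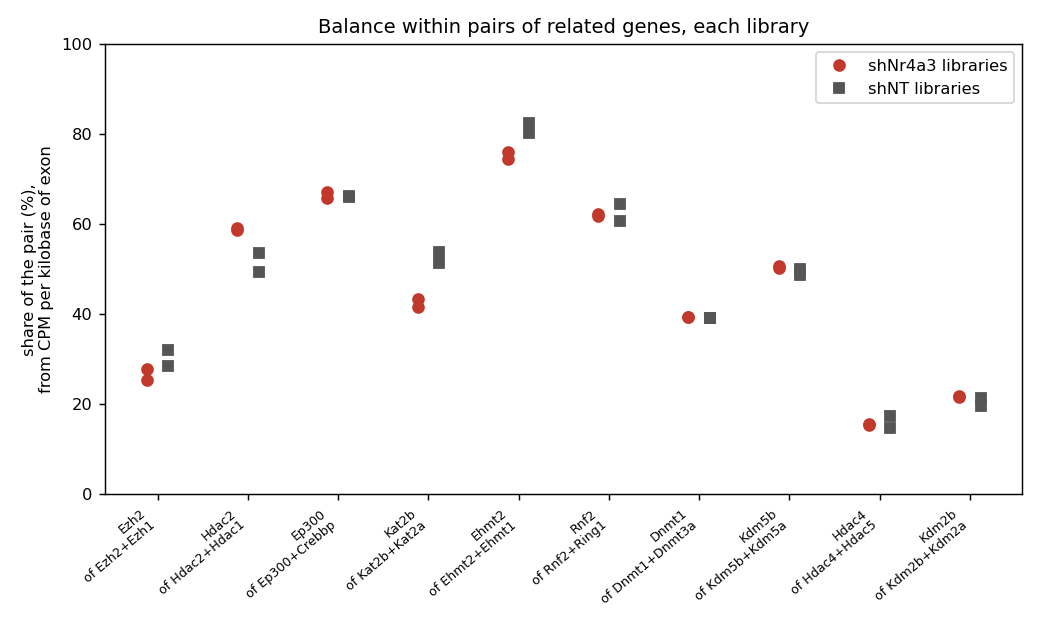
Share of the first-named gene in the summed per-kilobase level of a pair of related chromatin modifiers, in percent, for each shNr4a3 library (circles) and each shNT library (squares). The groups lie apart by more than the spread within either for Kat2b (41.7% and 43.4% in shNr4a3, 51.4% and 53.8% in shNT), Ehmt2 and Hdac2; Ezh2, Kdm5b, Kdm2b and Dnmt1 do not overlap but lie closer than that spread or nearly coincide.

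All 3 remodelling genes passed, with small changes, and Chd4 and Smarca4 had the highest levels per kilobase of the set in shNr4a3 libraries. Chd4, the ATPase of the NuRD complex, was the highest of all 43 at 36.9 ± 1.1 CPM per kilobase in shNr4a3 and 44.4 ± 2.5 in shNT (SD, n = 2 each). It had 302 and 289.9 CPM in shNr4a3 against 370.1 and 342 CPM in shNT (-0.27 ± 0.06; adjusted p = 1.90e-04), and narrowly lost its call without shNr4a3 replicate 2 (-0.24, adjusted p = 0.0512) and shrank to -0.15 with library totals only. Arid1a, the DNA-binding subunit of the BAF complex, had 99.0 and 103 CPM in shNr4a3 against 132 and 122 CPM in shNT (-0.33 ± 0.07; adjusted p = 9.40e-05; -0.22 with library totals only). Smarca4, also called BRG1, the BAF ATPase, had 211 and 210.2 CPM in shNr4a3 against 192 and 177 CPM in shNT; its log2 fold change of 0.19 ± 0.06 (adjusted p = 0.00689) did not pass when either shNr4a3 library was left out, at 0.19 and 0.20, and was 0.31 with library totals only. Among 35 other remodelling genes 9 rose and 6 fell (25.7% and 17.1%, beside 27.6% and 27.9% of all tested genes). Some moved more than any of the 3 remodelling genes of the set. Chd3, a NuRD ATPase related to Chd4, fell by 2.02 (SE 0.08) and the BAF subunit Smarce1 by 0.96 (SE 0.08) on the log2 scale. The BAF subunit Smarcd1 rose by 1.23 (SE 0.13) and the ISWI ATPase Smarca5 by 0.58 (SE 0.06).

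The shares called as higher and as lower varied over the 6 subgroups. Polycomb genes had 62.5% higher and 12.5% lower, demethylases 50% and 25%, DNA methylation genes 40% each, acetylation genes 30% and 20%, remodelling genes 33.3% and 66.7%, and methyltransferases 22.2% and 44.4%, where all tested genes had 27.6% and 27.9%. With library totals only, the methyltransferases turned to 4 higher and 3 lower, DNA methylation genes stood at 3 and 2 and demethylases at 4 and 1, while the counts of the other subgroups were as before. With 3 to 10 genes a subgroup these shares are descriptions and were not tested. The 148 other chromatin genes of the same 6 classes stood near the background, with 27.7% higher and 25.0% lower, a median log2 fold change of 0.04 and a median absolute one of 0.23.

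**Figure D4:**
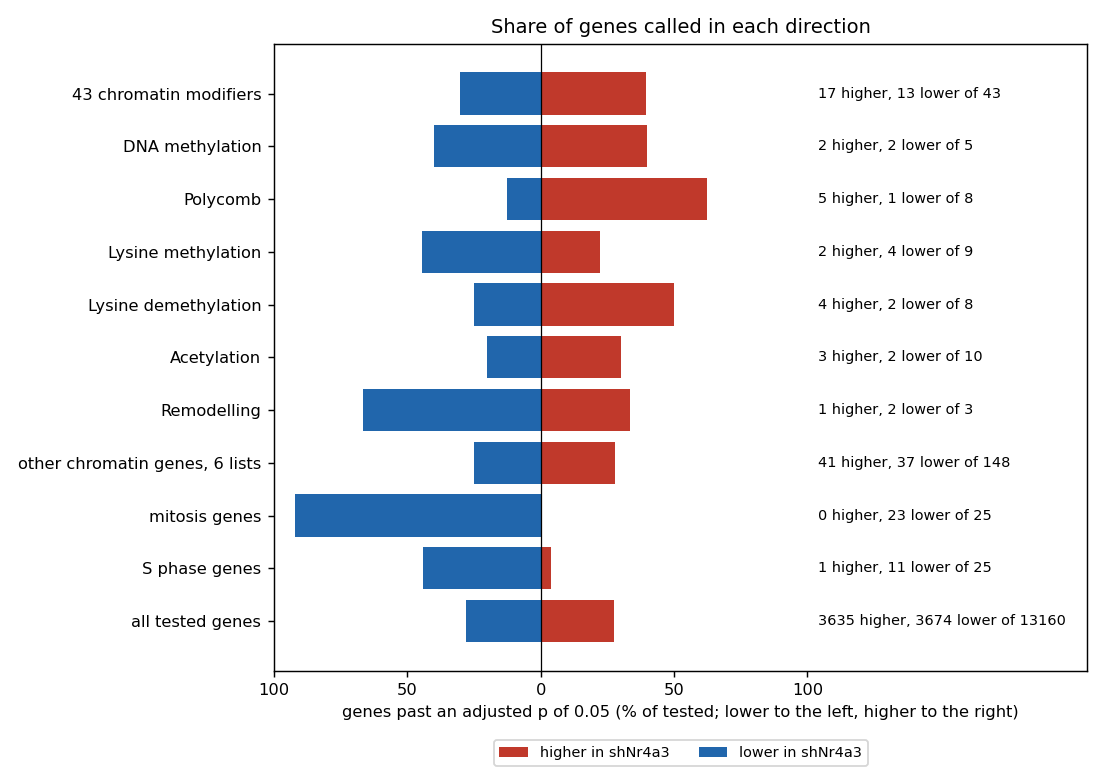
Percentage of tested genes that passed an adjusted p of 0.05 as lower (left of 0) or higher (right of 0) in shNr4a3, for the 43 chromatin modifiers, their 6 subgroups, other chromatin genes, mitosis and S phase genes, and all tested genes. The Polycomb bar reaches 62.5% on the higher side and the mitosis bar 92.0% on the lower side, with all tested genes at 27.6% and 27.9%.

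The genes of the set were long, with a median exon length of 8019 bases against 4540 over all genes in GENCODE M21. Of the 12 with 2556 to 5352 exon bases, 9 rose and the other 3 did not pass, and of the 31 longer ones 8 rose and 13 fell. Over all genes of those lengths, 25.0% rose and 29.5% fell in the shorter class, and 28.7% rose and 29.8% fell in the longer one. Pearson's r between the log2 fold change and log2 exon length was -0.18 over the 43 genes and -0.01 over 12675 genes, genes not being independent replicates. Removing the trend of the fold change on length left all 30 calls in place. That trend was fitted over all tested genes, where r was near 0, so the step does not address the length pattern among the 43.

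Most calls stood under a changed processing, but few changes were large. Of the 30 calls, 23 held in each of 13 alternative settings other than a test against a minimum fold, and Tet1, Ehmt2, Kdm1a, Kdm2a, Hdac4, Smarca4 and Chd4 lost theirs in at least 1. When a log2 fold change beyond 0.5 was required (edgeR's glmTreat), only Kdm5b (adjusted p = 0.00413), Suz12 (adjusted p = 0.0346) and Kdm5a (adjusted p = 0.0357) remained. In the authors' deposited table, whose p-values test the same minimum, Kdm5b alone of the 43 passed, with a log2 fold change of 0.68 and an adjusted p of 0.0304.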

How the data were processed

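Sample titles put 2 of the 4 RNA libraries in each group. Ribosomal RNA was removed and libraries were stranded and paired-end, per the labels' protocols, although the molecule is entered as polyA RNA. The submitters' processing notes name mm10, Trimmomatic 0.36, Subread 1.5.1, featureCounts and SAMtools; which aligner, annotation and strand setting were used is not given there.

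The authors deposited raw counts per gene (13192 genes, mean count at least 10.25), which were tested with edgeR 4.0.16 under R 4.3.3 (TMM factors, robust quasi-likelihood fit and F test, default filter, 13160 genes, group as the only term). P-values were adjusted by Benjamini-Hochberg over all tested genes at 0.05, and the SE is the log2 fold change over the square root of F. The authors' deposited FPKM values were not used for levels: they imply gene lengths unrelated to the annotation (r = -0.005 with GENCODE M21 exon lengths over 12675 genes; within 20% for 5 of the 43). Levels between genes are CPM per kilobase of GENCODE exon. The deposited signal column (a mean of normalised counts) and score columns (the standard error and test statistic) entered only the check of the deposited p-value, which was recomputed from the deposited log2 fold change as a test against 0.5 (largest difference 4.4e-16).

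Members and gene lists were chosen with earlier results of these data known. Named genes are all members, Nr4a3 and up to 4 genes with the smallest p of each list; others are marked. A gene that this rule names is not reported here. The fit was tested on simulated data of 13119 genes with 200 changed, finding 85.0% of genes changed by 0.5 and 100% of those changed by 1 on the log2 scale, with 5.59% false calls. The changed genes were drawn from those with a mean count over 100, and all genes had the same dispersion. These rates therefore do not cover rarer genes such as Tet1 and Nr4a3, nor a table in which most genes are called. Replicates differed by more than sampling noise (chi-square per gene 3.98 between the shNr4a3 libraries and 11.1 between the shNT libraries). The common biological coefficient of variation was 6.57%. Alternatives used DESeq2 1.42.0, limma-voom (limma 3.58.1), other scalings and filters, a replicate block, each library left out, a minimum fold and a length correction.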

Additional observations from a re-analysis of the deposited data

How the results depend on the processing

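A minimum log2 fold change of 0.5 left 3 chromatin modifiers higher and 0 lower (edgeR's glmTreat; at an unadjusted p under 0.05, 6 and 1; the authors' deposited table has 1 and 0), and 750 genes higher and 1351 lower over the whole table. In the other alternatives run, the member counts stayed within 1.5 times, at 15 to 19 higher and 11 to 14 lower with each library left out, and at 17 and 13 in DESeq2; over all genes, leaving out a library gave 2665 to 3848 higher and 2862 to 3758 lower. With a library left out, its group has 1 sample, which is assumed to vary like the other group. Nr4a3 ran from -2.33 to -3.54 with each library left out. No called member changed direction in any alternative. Uncalled members turned sign: Setdb1 (0.0455) and Kdm2b (0.0290) with library totals only, Crebbp with a stricter filter of 100 counts in at least 2 libraries (-0.0154) and with the length trend removed (-0.0127), and, over the libraries left out in turn, Ezh1 (-0.0551 to 0.146), Setdb1 (-0.177 to 0.0360), Kdm6b (-0.10 to 0.213) and Crebbp (-0.0377 to 0.0496). The cause was not tested. Library totals only also let Tet2 pass (0.24, adjusted p = 0.0408). Replicate numbers were not shown to pair the samples: deviations from the group means correlated at -0.04 between same-numbered libraries. With the replicate number as a block, the members stood at 17 higher and 13 lower and all genes at 3552 and 3599, and the Nr4a3 value was -2.91. Tet1, at 34 to 111 counts, was the member most limited by depth. Under the stricter filter Tet1 and Nr4a3 were not tested.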
